A study of Mus musculus with 2 samples.

Results

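The 8 genes Calb1, Calb2, Pvalb, Necab1, Necab2, Ncald, Hpcal1 and Nrgn encode proteins of neurons that bind calcium or act on the calcium sensor calmodulin. They were chosen by name from the 28692 genes counted in each library, and all 8 were found there. Their levels were described in neurons of the mouse lateral hypothalamic area, a region known for its part in feeding and arousal. All animals were C57BL/6 littermates at postnatal day 30. There were 2 libraries of single cells (10x Genomics Chromium v2), 1 labelled male, pooled from 3 animals, and 1 labelled female, pooled from 2. Nothing else set the groups apart: no treatment, transgene or sort was given in the labels, and every group below is a set of cells of the same 2 libraries. Wherever 2 values are given, the library labelled male comes first.

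Calcium entering an active neuron is caught by 2 kinds of protein. Buffers, such as calbindin (Calb1), calretinin (Calb2) and parvalbumin (Pvalb), hold it through EF-hand loops and shape how long and how far the signal spreads, and the 3 are widely used to tell classes of interneurons apart in the cortex. Sensors change shape when calcium binds and pass the signal on. Neurocalcin delta (Ncald) and hippocalcin-like 1 (Hpcal1) are sensors of the family that turns towards the membrane in calcium, the products of Necab1 and Necab2 carry EF-hand loops at their N-terminal end, and neurogranin (Nrgn) has no EF-hand but keeps calmodulin bound while calcium is low.

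On GRCm38, in the GENCODE M21 annotation, Calb1 (ENSMUSG00000028222) lies on chromosome 4 from 15881264 to 15908064 on the + strand, and Necab1 (ENSMUSG00000040536) on the same chromosome from 14952245 to 15149794 on the - strand. Calb2 (ENSMUSG00000003657) lies on chromosome 8 from 110137502 to 110168210, - strand, and Necab2 (ENSMUSG00000031837) on chromosome 8 from 119446719 to 119472640, + strand. Pvalb (ENSMUSG00000005716) lies on chromosome 15 from 78191114 to 78206400, and Ncald (ENSMUSG00000051359) on chromosome 15 from 37366175 to 37792570, both on the - strand. Hpcal1 (ENSMUSG00000071379) lies on chromosome 12 from 17690856 to 17791933, + strand, and Nrgn (ENSMUSG00000053310) on chromosome 9 from 37544492 to 37552904, - strand. Necab1 is overlapped by antisense genes, the largest of which had 355 UMIs over both libraries against 2171 for Necab1. How strand was used in counting is not stated by the labels, so how far these overlaps affect the counts of Necab1 is not known.

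A unique molecular identifier (UMI) counts 1 captured transcript. The libraries held 3439 and 3793 barcodes with 23151801 and 27437142 UMIs, and after filtering 3181 and 3515 cells, of which 2038 (64.1%) and 2262 (64.4%) were neuron-like. The libraries share 18 barcodes. Neither library matched its sex label: Xist gave 20641 and 30 UMIs and Y-linked genes 0 and 7618, so each library is named here by its label only. The neuron-like cells carried neuronal markers, with Snap25 in 97.2% and 97.4% of them. Transcripts of Hcrt, the peptide hypocretin, and of Pmch, melanin-concentrating hormone, were found in 63.6% and 71.0% and in 78.8% and 76.8% of neurons, far more than the cells with high levels. For that reason Hcrt-high and Pmch-high neurons were those with at least 0.3% of their UMIs from the gene, 83 and 83, and 85 and 61. Inhibitory neurons (985 and 1108) had a UMI of the GABA transporter Slc32a1 and none of the glutamate transporter Slc17a6, excitatory neurons (709 and 782) the reverse. The other excitatory neurons (598 and 685) are those below 0.3% for both peptides. Hcrt-high and Pmch-high neurons were set by the peptide alone, with no transporter required, so not all of them need be excitatory by this rule. The labels tie no cell to an animal, so each library counts as 1 sample. The p-values below weigh each difference between cell groups, within libraries, against a spread of such differences between the 2 pools. With 1 residual degree of freedom this spread is largely borrowed from all genes. In both Hcrt-high comparisons and the gates on Gal, Tac2, Nts, Lhx6, Th, Foxb1 and Fezf1, described below, it is wholly borrowed. A gene's own variation between the pools has no weight in those fits. Spread between animals is not measured.

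All 8 genes stood higher in neurons than in mature oligodendrocyte-like cells, which serve as the background of free RNA here. Levels are given in CPM, a gene's UMIs per 1000000 UMIs of the cell group, with exact Poisson 95% intervals where an interval is given, and shares of cells with exact Clopper-Pearson 95% intervals. These intervals cover counting error only. Calb1 was at 216 (209 to 223) and 194 (188 to 200) CPM in neurons and at 7.98 and 9.48 CPM in mature oligodendrocyte-like cells. Calb2 was at 219 and 169.8 CPM against 12.7 and 15.7. Ncald, at 377 and 343 CPM in neurons, was at 79.1 and 68.6 CPM in mature oligodendrocyte-like cells, and in oligodendrocyte precursor-like cells it reached 366 (287 to 461) and 402 (326 to 490) CPM, with intervals that include the level of neurons in both libraries. The remaining genes ranged in neurons from 18.7 and 14.1 CPM for Pvalb to 131 and 102 CPM for Hpcal1, with Necab1 at 54.0 and 53.3, Necab2 at 47.1 and 44.3 and Nrgn at 118 and 91.1.

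Pvalb was the rarest of the 8 in neurons. A UMI of it was found in 6.33% and 6.63% of neurons, with median depths of 7713.5 and 8123.5 UMIs, against 2.28% and 1.48% of mature oligodendrocyte-like cells at 4179 and 4663 UMIs. With every cell thinned to 3000 UMIs, which kept 1898 and 2177 neurons, these shares were 3.27% and 2.89% of neurons against 1.58% and 1.03%. The other 7 genes were found in 10.2% to 56.7% of thinned neurons, Ncald in the largest share.

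**Figure D1:**
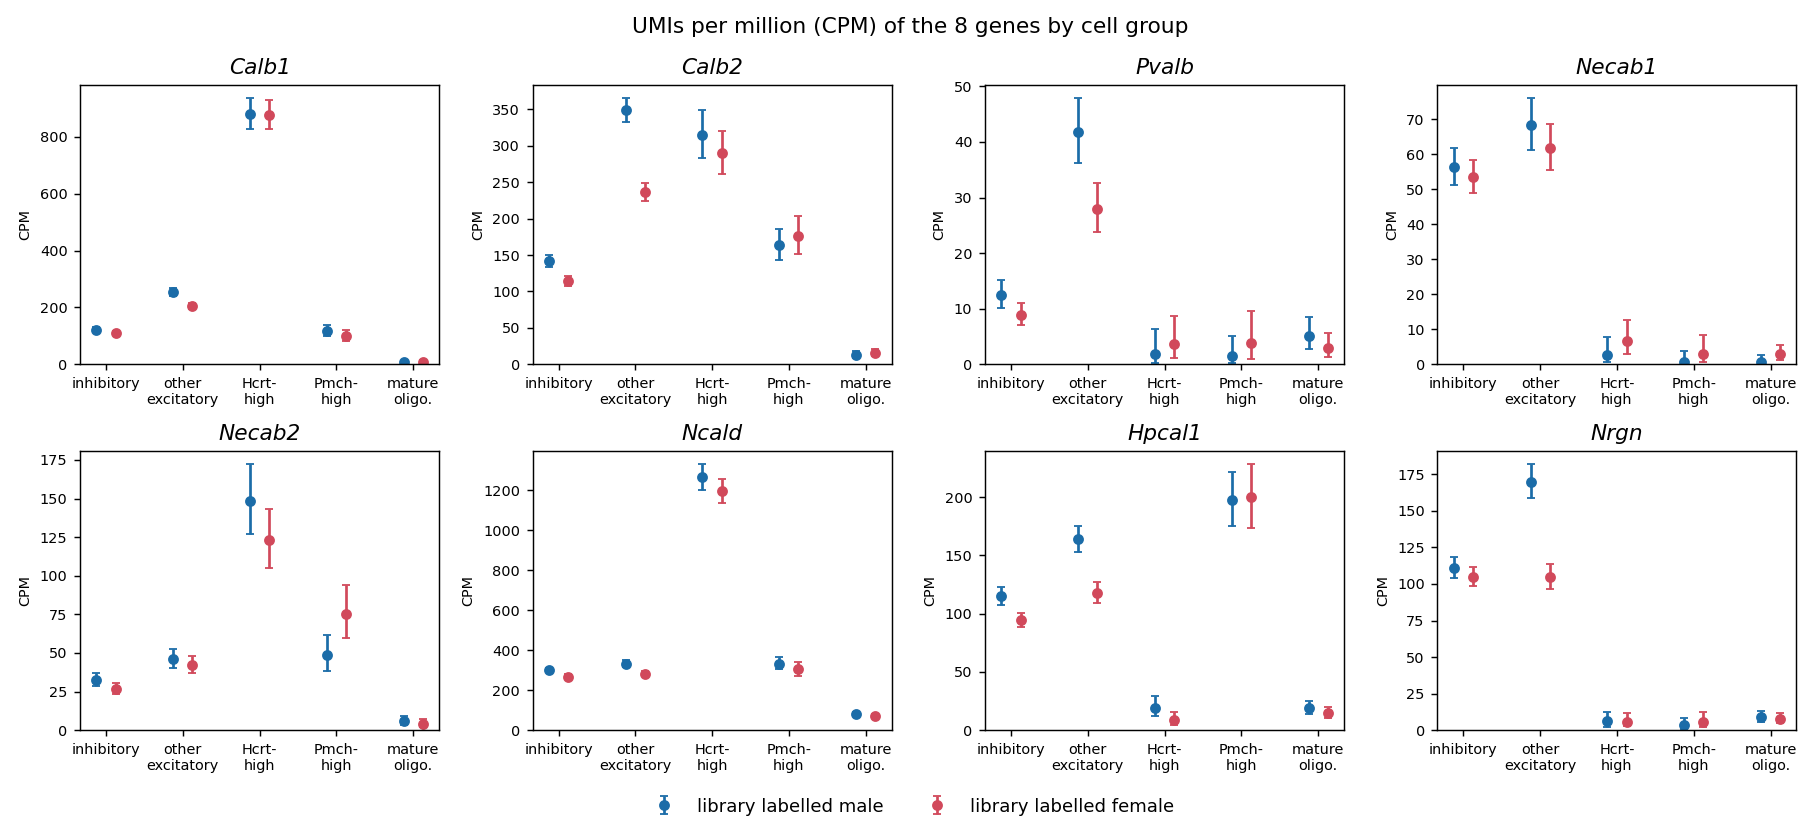
Levels (CPM, linear axes that differ between panels) of each gene in inhibitory, other excitatory, Hcrt-high and Pmch-high neurons and in mature oligodendrocyte-like cells. Points are the 2 libraries and bars exact Poisson 95% intervals; Calb1 and Ncald stand highest in Hcrt-high neurons, and Necab1, Nrgn and Pvalb are near the oligodendrocyte level in both peptide groups.

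The levels of the 8 genes differed between neuron subtypes, and some genes shared their highest subtype: Calb1 with Ncald, Calb2 with Pvalb, and Necab2 with Nrgn. Neuron-like cells were grouped again without the 8 genes and without the wider calcium gene lists, into 31 subtypes, of which 27 (12 excitatory and 15 inhibitory) had at least 10 cells in each library and a median of at least 3000 UMIs. They are called by their 3 leading genes and ordered by the lower of the 2 libraries. The subtype levels are a description with no test, since the cells were grouped by their own genes.

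Among the buffers, Calb1 was highest in the Hcrt, C1ql3, Pdyn subtype, at 912 and 902 CPM, and these 85 and 85 cells held 30.2% and 32.8% of all neuronal Calb1 UMIs. Second came the Ptk2b, Pthlh, Bcl11b subtype, inhibitory, at 602 and 644 CPM, then 3 subtypes led by Gpr50, by Tcf7l2 and by Synpr whose intervals overlap (456 and 375, 407 and 359, 504 and 351 CPM). At the other end, the Th, Slc18a2, Etv1 subtype, led by the enzyme of dopamine synthesis, had 0 and 1 Calb1 UMIs. Calb2 was highest in the Trh, Onecut2, Sall3 subtype, at 743 and 589.8 CPM, led by thyrotropin-releasing hormone, and the Zic1-, Fezf1- and Meis2-led subtypes, among the next in order, lay between 296 and 432 CPM with overlapping intervals. The same Trh, Onecut2, Sall3 subtype came first for Pvalb, at 143 and 109.5 CPM, and held 46.7% and 36.4% of all neuronal Pvalb UMIs. There, Pvalb was found in 24 of 97 and 18 of 88 cells, 24.7% (16.5 to 34.5) and 20.5% (12.6 to 30.4), with up to 36 and 25 UMIs in 1 cell. The Pvalb UMIs were thus held by few cells: a single cell held 11.1% and 8.74% of them. The small Col27a1, Calca, Col13a1 subtype had 25.4 and 115 CPM of Pvalb, from 3 and 13 UMIs, so it stood above the Trh-led subtype in 1 library only. The inhibitory Lhx6, Npas1, Esrrg subtype held the second largest number of Pvalb UMIs, at 38.7 and 20.5 CPM. With finer grouping the Trh-led subtype had 90.3 and 141 CPM of Pvalb, while a small Scn4b, Tbr1, Syt2 subtype of 17 and 22 cells had 401 and 16.2 CPM, from 72 and 4 UMIs. The order for Pvalb thus differed between the libraries and with where a subtype ends.

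Necab1 and Necab2 had different top subtypes. Necab1 stood at 388 and 371 CPM in the Sst, Npy, 4833423E24Rik subtype, which was excitatory by its transporter and small (61 and 53 Necab1 UMIs), and the next, the Tcf7l2, Lypd6, Lef1 subtype, was at 122 and 136 CPM. Necab2 was at 179.98 and 186 CPM in the Ptk2b, Pthlh, Bcl11b subtype, 142 and 117 in the Hcrt, C1ql3, Pdyn subtype and 114 and 117 in the Ebf3, Nxph4, Lmo4 subtype, with intervals that overlap from each to the next. The sensors differed in spread. Ncald was at 1223 and 1167 CPM in the Hcrt, C1ql3, Pdyn subtype and between 102 and 558 CPM in the first library, and between 105 and 447 CPM in the second, in all others, and no other subtype was over 2 times the median subtype (286 and 271 CPM). Hpcal1 was highest in the Synpr, Spon1, Lef1 subtype, at 535 and 433 CPM, followed by the inhibitory Ebf1, Npy, Npw subtype at 370.1 and 262 CPM.

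Nrgn had 2 high points. The inhibitory Ptk2b, Pthlh, Bcl11b subtype had 1414 and 1059.7 CPM and the excitatory Fezf1, Adcyap1, Gda subtype 693 and 398 CPM, with no overlap of their intervals, and the third subtype, Six3, Six6, Sst, was at 228 and 203 CPM. In the Ptk2b subtype 4 of 5 markers of telencephalic neurons were at 0, while the list summed to 169.7 and 138 CPM. Only the Col27a1, Calca, Col13a1 subtype came near, with 93.0 and 115 CPM and also 4 of 5 markers at 0, and every other subtype had at most 25.5 CPM. Of that list, Ppp1r1b is also a leading gene of the Ptk2b subtype and Neurod2 of the Col27a1 subtype, so the sums cannot tell telencephalic cells apart. The part of neighbouring tissue in the Nrgn, Necab2 and Calb1 levels of the Ptk2b subtype was not tested. The 3 thalamic markers, Prkcd, Tcf7l2 and Lef1, summed to 309 and 290 CPM in the Tcf7l2, Lypd6, Lef1 subtype, with 1 of 3 at 0 in each library. Tcf7l2 and Lef1 are also leading genes that name this subtype, so the sum cannot tell thalamic cells apart. Calb1 and Necab1 were high there, and the part of thalamic tissue was not tested either. Over the 27 subtypes the 2 libraries gave like levels, with Pearson correlations of log2(CPM + 10) from 0.77 for Pvalb to 0.95 for Nrgn.

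**Figure D2:**
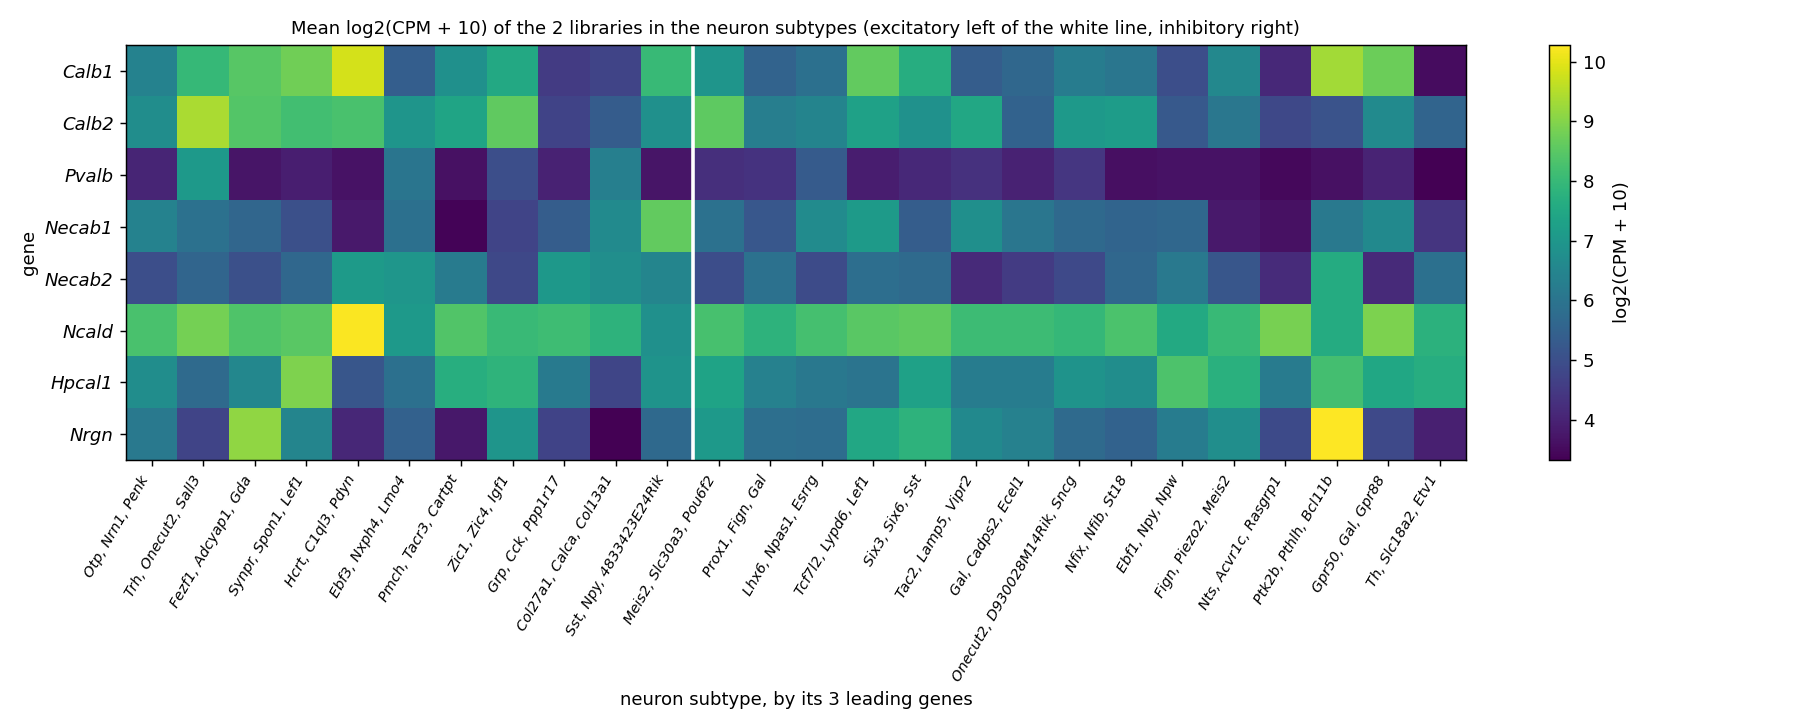
Mean log2(CPM + 10) over the 2 libraries of each gene (rows) in 26 of the 27 neuron subtypes (columns, named by 3 leading genes), excitatory left and inhibitory right of the white line. Bright cells mark high levels: Calb1 and Ncald in the Hcrt-led, Calb2 and Pvalb in the Trh-led, Hpcal1 in the Synpr-led and Nrgn in the Ptk2b- and Fezf1-led subtype.

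Among the 8 genes, Calb1 and Calb2 were the pair whose levels were most alike over subtypes, with Pearson correlations of 0.63 and 0.52. Calb1 and Nrgn followed with 0.43 and 0.42, and Hpcal1 and Nrgn with 0.41 and 0.38, while Pvalb and Hpcal1 (-0.43 and -0.44) and Necab1 and Ncald (-0.33 and -0.49) ran opposite. These correlations run over 27 subtypes that share libraries and differ in depth, and are given as a description. Among 9962 genes, the most alike to Nrgn by the smaller of the 2 libraries' correlations were Ddn, the dendritic protein dendrin (0.70), the chemokine Cx3cl1 (0.70) and the kinase-like Camkv (0.70). The most alike to Ncald were Rspo1 (0.71), Zcchc12 (0.70) and AW551984 (0.68), to Necab1 the sensor hippocalcin Hpca (0.68), Pole4 (0.59) and Cit (0.58), and to Calb2 the synapse organiser Cbln1 (0.68), Krt222 (0.64) and the peptide Adcyap1 (0.63). Pvalb was most like Nxph4 (0.64), Gramd1b (0.64) and the EF-hand sensor Cabp1 (0.63), and Calb1 like Fam120a (0.66), Myh7 (0.64) and Nog (0.63). For Necab2, led by Nnat (0.58), Dynll1 (0.55) and Usf2 (0.54), and Hpcal1, led by Tshz2 (0.55), Gng13 (0.54) and Zc3h12b (0.54), the highest value was 0.58.

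Inhibitory neurons had less of 6 of the 8 transcripts than excitatory neurons. Here, as in the later comparisons, the UMIs of each cell group were summed per library, and the resulting 4 sums entered the quasi-likelihood test of edgeR, blocked by library, with p-values adjusted after Benjamini and Hochberg over all genes. A gene was called at an adjusted p under 0.05. Log2 fold changes are the fitted values after TMM scaling with a standard error from edgeR's F statistic (n = 2 libraries per group).

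Calb1 was at 122 and 112 CPM in inhibitory and 323 and 300.3 CPM in excitatory neurons, a log2 fold change of -1.46 ± 0.05 (adjusted p = 1.14e-41, edgeR). Calb2 was at 142 and 114 against 320.1 and 236 CPM (-1.15 ± 0.05, adjusted p = 1.09e-34, edgeR), and Pvalb at 12.4 and 8.90 against 30.2 and 22.3 CPM (-1.34 ± 0.13, adjusted p = 1.47e-13). Every inhibitory value of these buffers lay below both excitatory values. Necab2 was at 32.5 and 26.8 against 61.6 and 58.2 CPM (-1.06 ± 0.09, adjusted p = 1.44e-17, edgeR) and Ncald at 301 and 268 against 468 and 423 CPM (-0.69 ± 0.04, adjusted p = 2.46e-26). Hpcal1, at 115 and 94.4 against 149.5 and 109.9 CPM, was called by edgeR (-0.35 ± 0.05, adjusted p = 3.87e-07) but neither by DESeq2 (adjusted p = 0.175) nor without the replicate block (adjusted p = 0.2505). The lowest excitatory value of Hpcal1 lay below the highest inhibitory one, so the groups overlapped. Necab1 (56.2 and 53.5 against 49.1 and 48.5 CPM, 0.13 ± 0.08, adjusted p = 0.266) and Nrgn (111 and 105 against 122 and 81.8 CPM, 0.06 ± 0.06, adjusted p = 0.576) did not pass edgeR's test.

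The 6 lower genes stand beside 12.9% of 13228 genes called lower and 11.0% called higher, and DESeq2 called 5 of them. The median log2 fold change of the 8 genes was -0.88, beside 0.01 over all genes tested. The values depended on the peptide neurons. Without Hcrt-high and Pmch-high neurons Calb1 (-0.97), Calb2 (-1.18), Pvalb (-1.70), Necab2 (-0.58) and Hpcal1 (-0.42) were still called lower by edgeR, and Ncald was at -0.11 and not called (adjusted p = 0.0566). Necab1 (-0.24, adjusted p = 0.0412, edgeR) and Nrgn (-0.32, adjusted p = 0.0422) were then called lower in inhibitory neurons. Markers of other cells differed too. Those of astrocytes summed to 508 and 485 CPM in inhibitory and 289.6 and 313 CPM in excitatory neurons, and those of newly formed oligodendrocytes to 42.9 and 41.7 against 105 and 113 CPM, with none at 0 in either list. Erythrocyte markers were at 24.3 and 206 against 24.7 and 526 CPM. The part of these RNAs in the comparison was not tested.

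Hcrt-high neurons had more Calb1, Ncald and Necab2 and almost none of Nrgn, Necab1, Hpcal1 and Pvalb. Calb1 was at 879.9 and 878 CPM in them and at 255 and 205 CPM in the other excitatory neurons, 4.58-fold higher (2.19 ± 0.11, adjusted p = 1.31e-78, edgeR). A Calb1 UMI was found in 89.2% of Hcrt-high cells in each library, and in 89.0% and 80.8% of those thinned to 3000 UMIs, against 36.5% and 31.8% of thinned other excitatory neurons. Ncald was at 1267 and 1195 against 332 and 284 CPM, 4.77-fold higher (2.25 ± 0.12, adjusted p = 9.34e-76, edgeR), and Necab2 at 148 and 123 against 46.0 and 42.1 CPM, 3.65-fold higher (1.87 ± 0.13, adjusted p = 1.08e-47). In these 3 genes both Hcrt-high values stood well above both others.

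The sensor Hpcal1 went the other way, at 19.3 and 8.85 CPM in Hcrt-high and 164 and 118 CPM in the other excitatory neurons (-3.10 ± 0.19, adjusted p = 2.55e-55, edgeR). Nrgn was at 6.14 and 5.90 against 170.0 and 105 CPM (-4.23 ± 0.23, adjusted p = 2.02e-69). Necab1 had 3 and 9 UMIs in Hcrt-high neurons, 2.63 and 6.64 CPM, against 68.2 and 61.8 CPM (-3.49 ± 0.28). Pvalb had 2 and 5 UMIs against 203 and 162, a ratio of CPM with counting intervals from 0.00506 to 0.154 and from 0.0423 to 0.314 in the 2 libraries. Mature oligodendrocyte-like cells had 9.07 and 7.84 CPM of Nrgn, 5.08 and 2.94 of Pvalb, 0.725 and 2.94 of Necab1 and 18.9 and 14.7 of Hpcal1, with intervals that overlap those of Hcrt-high neurons in both libraries, so these 4 genes were not detectable above background there. For Calb2, 315 and 289.9 against 349 and 236 CPM overlapped, and its call by edgeR (0.32 ± 0.11, adjusted p = 0.0084) was lost with DESeq2 (adjusted p = 0.322), without the block (0.177) and without TMM factors (0.61), where the value was 0.07.

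All 8 genes were called by edgeR, 4 higher and 4 lower, beside 21.3% and 19.8% of 11828 genes, and DESeq2 called 7, 3 higher and 4 lower. Thinning to 3000 UMIs, which evens out the depth of Hcrt-high cells (medians of 16101 and 18593 UMIs against 7833 and 8031), left 8 called. Without TMM factors the median of all genes moved by -0.25 (log2) here and by -0.27 in the Pmch-high comparison, and the direction of the other 7 genes held on both scales. The summed astrocyte markers were at 159.7 and 201 CPM in Hcrt-high against 336 and 347 CPM in other excitatory neurons, the mature oligodendrocyte markers at 377 and 412 against 439.9 and 566 CPM, and the erythrocyte markers at 21.1 and 57.5 against 26.3 and 673 CPM, with none of the 8 astrocyte and oligodendrocyte markers at 0. All 5 telencephalic markers were at 0 in Hcrt-high neurons. The part of these RNAs in these results was not tested.

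Pmch-high neurons also had little Nrgn, Necab1 and Pvalb, less Calb1 and, unlike Hcrt-high neurons, no loss of Hpcal1. They were compared with the same other excitatory neurons, so the 2 comparisons are not independent. Nrgn was at 3.49 and 5.65 CPM in Pmch-high neurons against 170.0 and 105 CPM (-4.72 ± 0.24, adjusted p = 4.16e-09, edgeR). Necab1 had 1 and 3 UMIs against 332 and 358 (-5.05 ± 0.36), ratios of CPM with counting intervals from 0.000258 to 0.0573 and from 0.00939 to 0.135. Pvalb had 2 and 4 UMIs (-3.60 ± 0.40). In all 3 genes the intervals overlap those of mature oligodendrocyte-like cells. Calb1 was at 117 and 98.9 against 255 and 205 CPM, 1.76-fold lower (-0.82 ± 0.10, adjusted p = 1.86e-05, edgeR), with both Pmch-high values below both others. Hpcal1 was at 197 and 199.7 against 164 and 118 CPM, 1.70-fold higher (0.76 ± 0.11, adjusted p = 0.000112, edgeR; 0.49 and adjusted p = 0.103 after thinning).

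The smaller differences depended on the method. Calb2 (163 and 176 against 349 and 236 CPM, -0.52 ± 0.13), Necab2 (48.8 and 75.3 against 46.0 and 42.1 CPM, 0.74 ± 0.18) and Ncald (333 and 304 against 332 and 284 CPM, 0.32 ± 0.08) were called by edgeR only. For Necab2 the plain log2 ratio was 0.09 in the library labelled male and 0.85 in the library labelled female, and for Ncald 0.01 and 0.10. All 8 were called by edgeR, 3 higher and 5 lower, beside 18.8% and 15.5% of 11790 genes, while DESeq2 called 1 higher and 4 lower, and thinning to 3000 UMIs left 4 called: Calb1, Pvalb, Necab1 and Nrgn. Mature oligodendrocyte markers summed to 1045 and 394 CPM in Pmch-high neurons against 439.9 and 566 CPM in the others, with none of 8 at 0. The endothelial markers were higher in both libraries (167 and 165 against 80.8 and 82.8 CPM, none of 7 at 0). Markers of newly formed oligodendrocytes (41.1 and 35.8 against 123 and 131 CPM, with 0 and 3 of 7 at 0 in Pmch-high neurons) and of astrocytes (213 and 235 against 336 and 347 CPM, none of 8 at 0) were lower, and erythrocyte markers were at 22.3 and 53.7 against 26.3 and 673 CPM. The part of these RNAs in the result was not tested.

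Set directly against each other, the 2 peptide groups differed most in Hpcal1 and Calb1. Hpcal1 was 14.5-fold lower in Hcrt-high than in Pmch-high neurons (19.3 and 8.85 against 197 and 199.7 CPM, -3.86 ± 0.19, adjusted p = 2.34e-84, edgeR), and a UMI of it was found in 10.8% and 13.3% against 77.6% and 78.7% of cells. Calb1 was 8.01-fold higher in Hcrt-high neurons (3.00 ± 0.13), Ncald 3.82-fold (1.93 ± 0.12), Necab2 2.21-fold (1.14 ± 0.15) and Calb2 1.77-fold (0.82 ± 0.12). In each of these 5 genes the values of the 2 groups did not overlap. The other 3, Pvalb, Necab1 and Nrgn, had at most 9 UMIs in any sum and did not pass the filter on low counts. The 5 genes tested were all called by edgeR, 4 higher and 1 lower, beside 16.2% and 17.8% of 9683 genes, and by DESeq2.

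**Figure D3:**
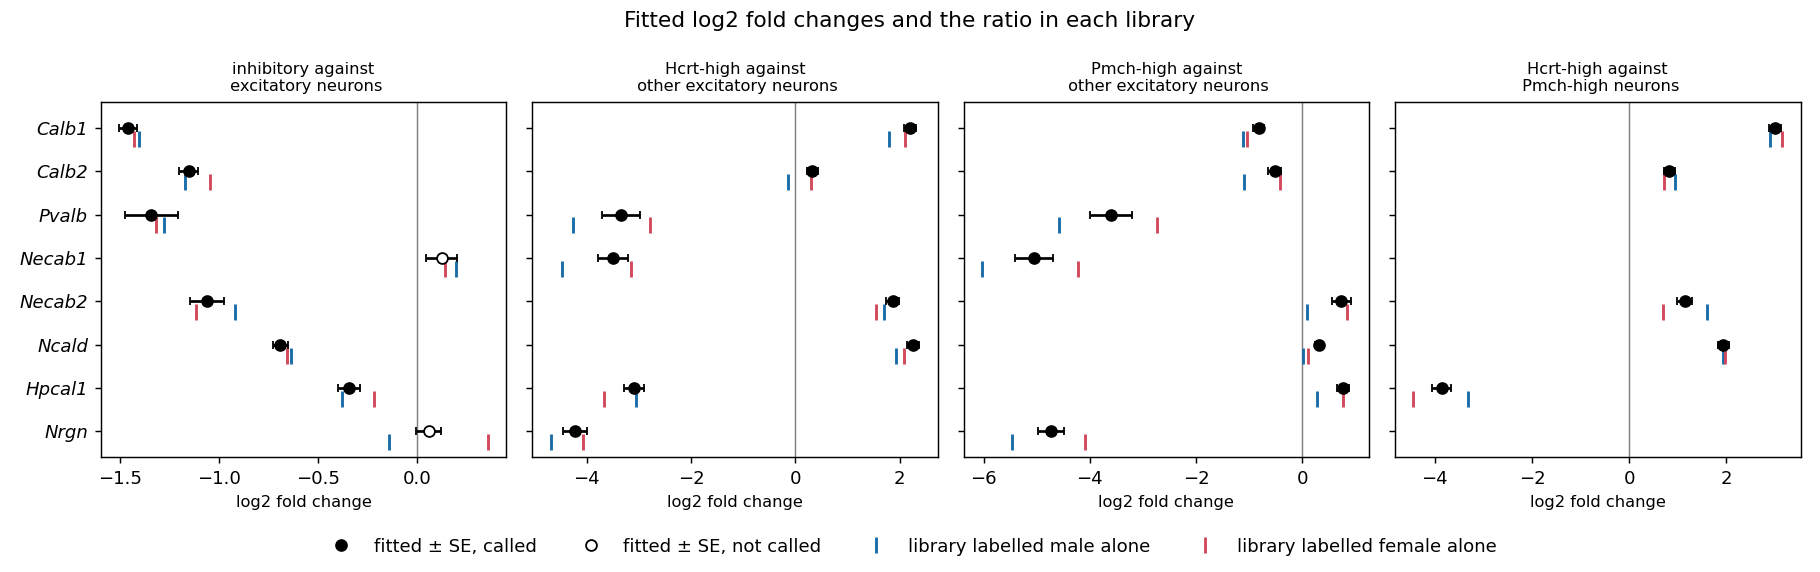
Fitted log2 fold changes (dots, bars 1 SE, filled where called by edgeR at an adjusted p under 0.05) of the 8 genes in the 4 comparisons, with the plain CPM ratio of each library as coloured ticks (log2, without TMM scaling, which moves the median of all genes by -0.25 and -0.27 in the 2 middle panels). Hpcal1 lies at -3.10 for Hcrt-high and at 0.76 for Pmch-high neurons against the same other excitatory neurons; genes that failed the low-count filter have no mark.

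Within the inhibitory neurons, marker gates gave tests that the subtypes could not. Cells with 2 or more UMIs of a peptide gene (Gal, Sst, Tac2, Nts or Cartpt), or 1 or more of Lhx6 or Th, were compared with cells that had none. Somatostatin cells stood apart with high levels: with Sst, 6 of 8 genes were called, each of them higher (6.47% of all genes were called in either direction), 5 of them by DESeq2 too. Nrgn was at 316 and 309.7 CPM in 131 and 156 Sst cells against 78.1 and 70.9 CPM (2.10 ± 0.08, adjusted p = 7.78e-20, edgeR). Necab2 was at 56.8 and 57.0 against 29.1 and 21.6 CPM (1.21 ± 0.16), Calb1 at 207 and 173 against 110.1 and 99.9 CPM (0.87 ± 0.08), Calb2 at 219.8 and 163 against 126 and 107 CPM (0.73 ± 0.08) and Hpcal1 at 179.5 and 138 against 106 and 87.1 CPM (0.74 ± 0.09). The Ptk2b, Pthlh, Bcl11b subtype made up 12.98% and 14.7% of these Sst cells, and its part in the difference was not tested.

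Cells with Lhx6, a LIM homeobox factor of interneuron development, had 6 of 8 genes called (5.52% of all genes), 2 higher and 4 lower, of which DESeq2 called 3. Calb1 was at 33.6 and 20.7 against 131 and 122 CPM (-2.27 ± 0.17), Hpcal1 at 50.4 and 44.5 against 122 and 100.1 CPM (-1.24 ± 0.15) and Nrgn at 72.4 and 40.3 against 115 and 112 CPM (-1.07 ± 0.14). By edgeR only, Pvalb was higher, at 31.0 and 20.7 against 10.4 and 7.56 CPM (1.50 ± 0.29), from 24 and 20 UMIs, and Necab1 (0.89 ± 0.14) was higher too. The Pvalb and Necab1 calls were lost with cells thinned to 3000 UMIs, where the values were 0.04 and 0.57.

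With Tac2, the precursor of neurokinin B, 6 of 8 genes were called (6.27% of all genes). Calb1 was at 50.6 and 39.1 against 134 and 127 CPM (-1.56 ± 0.13) and Nrgn at 77.8 and 54.5 against 119 and 116 CPM (-0.86 ± 0.12), both also called by DESeq2. Necab2 was at 11.7 and 8.75 against 36.1 and 31.1 CPM (-1.73 ± 0.25; adjusted p = 0.0509 with DESeq2), and Necab1 at 73.0 and 93.6 against 53.7 and 45.7 CPM (0.79 ± 0.13). With neurotensin, Nts, 4 of 8 were called (8.33% of all genes), all 4 lower, among them Calb1 at 56.9 and 56.9 against 135 and 123 CPM (-1.15 ± 0.11) and Hpcal1 (-0.75 ± 0.11).

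The gates on Gal (7 of 8 called, 7.89% of all genes), Cartpt (3 of 8, 7.13%) and Th (6 of 8, 2.39%) rested on edgeR alone: DESeq2 called 0 of 8 genes in each, and thinning left 1 in each. Among them, Necab2 was at 59.0 and 43.7 against 28.1 and 23.9 CPM with Th (0.97 ± 0.16), and Pvalb at 6.55 and 3.01 against 15.9 and 10.3 CPM with Gal (-1.45 ± 0.33).

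Within the excitatory neurons below the peptide limit, the Trh and Fezf1 gates marked cells high in Calb2 and Pvalb. With Trh, 6 of 8 genes were called (8.44% of all genes), 5 of them by DESeq2. Calb2 was at 907 and 654 CPM in 59 and 61 Trh cells against 261 and 182 CPM (1.82 ± 0.08, adjusted p = 2.52e-19, edgeR), and Pvalb at 102 and 151 against 26.8 and 12.996 CPM (2.72 ± 0.23; plain log2 ratios 1.94 and 3.53). Ncald was higher (0.91 ± 0.08). Nrgn, at 33.1 and 32.3 against 195 and 117 CPM (-2.24 ± 0.19), and Hpcal1, at 42.5 and 46.2 against 189 and 122 CPM (-1.79 ± 0.18), were lower.

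With Fezf1, a zinc finger factor known from the ventromedial hypothalamus, 7 of 8 were called (12.2% of all genes). Calb2 (891 and 628 against 254 and 172 CPM, 1.84 ± 0.07), Pvalb (122 and 119.6 against 27.8 and 13.04 CPM, 2.61 ± 0.17) and Nrgn (469.5 and 284 against 118 and 75.6 CPM, 1.96 ± 0.10) were higher, and Hpcal1 was lower (-1.08 ± 0.15). The gate joined cells of 2 subtypes, 57.8% and 55.6% from the Fezf1, Adcyap1, Gda subtype and 37.5% and 34.7% from the Trh, Onecut2, Sall3 subtype. Over their whole subtypes, Pvalb had 3 and 2 UMIs in the former and 151 and 104 in the latter, whereas Nrgn was among its highest in the former and low with Trh.

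With Otp, 7 of 8 were called (7.63% of all genes), 4 of them by DESeq2. Pvalb was at 70.4 and 55.5 against 24.0 and 8.53 CPM (1.99 ± 0.18), Nrgn at 69.3 and 51.7 against 232 and 142 CPM (-1.62 ± 0.10) and Hpcal1 at 96.2 and 65.1 against 206 and 155 CPM (-1.18 ± 0.09). The Trh, Onecut2, Sall3 subtype made up 26.5% and 14.8% of the Otp cells, and its part in the Pvalb difference was not tested. With Ebf3, 7 of 8 were called (9.30% of all genes), 5 of them by DESeq2. Calb1 was at 133 and 76.0 against 308 and 254 CPM (-1.43 ± 0.09) and Nrgn at 79.9 and 43.2 against 209 and 129 CPM (-1.45 ± 0.11), while Necab2 (0.99 ± 0.14) and Necab1 (0.79 ± 0.12) were higher by edgeR only. With Nos1, nitric oxide synthase, 5 of 8 were called (3.44% of all genes), each higher, led by Nrgn (259.9 and 150.0 against 114 and 71.5 CPM, 1.14 ± 0.08) and Hpcal1 (233 and 159 against 121 and 87.0 CPM, 0.91 ± 0.08). Without the library block all 5 Nos1 calls were lost, with adjusted p from 0.0599 (Hpcal1, edgeR) to 0.873 (Calb2). With Foxb1, 0 of 8 were called by edgeR (3.05% of all genes), 0 had an unadjusted p under 0.05 and DESeq2 called 0, with only 31 and 47 cells in the gate.

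**Figure D4:**
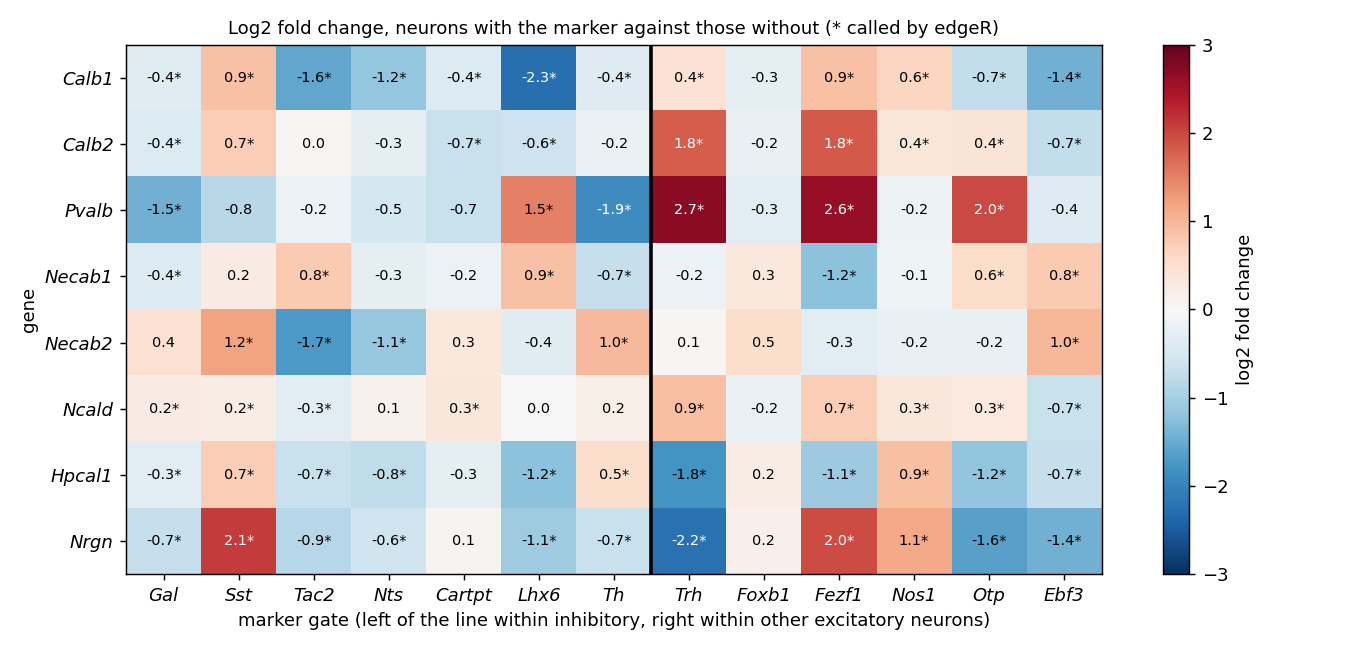
Fitted log2 fold changes (colour and number) of the 8 genes between neurons with and without each of 13 markers, 7 within inhibitory and 6 within other excitatory neurons; an asterisk marks a call by edgeR. Calb1 is lowest with Lhx6 (-2.27), Nrgn highest with Sst (2.10), Pvalb highest with Trh (2.72), and no gene was called with Foxb1.

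Hpcal1 and Nrgn were called in the same direction with Gal, Sst, Tac2, Nts and Lhx6 among inhibitory neurons and with Trh, Nos1, Otp and Ebf3 among excitatory ones, in opposite directions with Th and Fezf1, and in Pmch-high neurons (0.76 and -4.72). The gates and their references are drawn from the same cells, so these calls are not independent of each other. Not all shared calls held. DESeq2 did not call Hpcal1 with Gal and Tac2 or Nrgn with Gal and Nts, thinning ended the call of Hpcal1 with Gal, and without the replicate block Hpcal1 with Gal, Nos1 and Ebf3 and Nrgn with Nos1 were not called. Of the opposite calls with Th, neither was made by DESeq2, and that of Hpcal1 was also lost without the block and after thinning. RefSeq (GRCm38.p6) gave promoters for 4 of the 8 genes: Necab2, Nrgn, Hpcal1 and Pvalb, the last with 2 starts. Calb1, Calb2, Necab1 and Ncald have no entry. The 250 bases before the start are shown, 5′ to 3′ on the gene's strand, for Hpcal1 and Nrgn because both were called in many of these gates, and for the first Pvalb start, whose gene ran opposite to Hpcal1 over the subtypes. Capitals mark matches, on either strand, to the GC box GGGCGG and the box CCAAT. The Hpcal1 stretch is chr12:17690559-17690808 (+), that of Nrgn chr9:37552746-37552995 (-) and that of Pvalb chr15:78206401-78206650 (-).
Hpcal1: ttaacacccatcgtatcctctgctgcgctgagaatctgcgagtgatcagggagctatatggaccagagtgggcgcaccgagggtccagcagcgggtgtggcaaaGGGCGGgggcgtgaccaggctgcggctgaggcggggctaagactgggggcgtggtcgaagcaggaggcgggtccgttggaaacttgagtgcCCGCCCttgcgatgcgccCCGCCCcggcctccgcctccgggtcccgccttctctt
Nrgn: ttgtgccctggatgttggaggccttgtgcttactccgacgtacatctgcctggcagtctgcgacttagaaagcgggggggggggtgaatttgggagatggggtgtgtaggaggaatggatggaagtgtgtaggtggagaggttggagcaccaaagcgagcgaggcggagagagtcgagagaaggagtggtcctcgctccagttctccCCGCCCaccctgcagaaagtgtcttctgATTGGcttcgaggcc
Pvalb: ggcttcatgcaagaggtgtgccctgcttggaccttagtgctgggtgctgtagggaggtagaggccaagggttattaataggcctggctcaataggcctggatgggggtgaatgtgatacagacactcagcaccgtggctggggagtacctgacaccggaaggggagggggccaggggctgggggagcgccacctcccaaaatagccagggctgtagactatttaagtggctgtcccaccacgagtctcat
Hpcal1 had 3 GC boxes, the nearest beginning 37 bases before the start, and no CCAAT. Nrgn had 1 GC box, 43 bases before the RefSeq start, and 1 CCAAT match, 15 bases before it. That start lies inside the GENCODE span of Nrgn given above, which begins on the - strand at 37552904. Both Nrgn matches thus fall within that span. For Hpcal1 the RefSeq start lies before the GENCODE span. Neither Pvalb start nor Necab2 had either. Of 32851 promoters searched the same way, 32.7% had GGGCGG and 33.8% CCAAT, so both are common. The motifs TATAAA and TGACGTCA were searched on both strands too and were found in none of the 5 member stretches, against 12.4% and 1.55% of all promoters. The letters had a GC content of 66.8% in Hpcal1, 58.4% in Nrgn and 58.4% in Pvalb, with a median of 52.4% over all promoters.

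Other genes of calcium handling were called in both directions. The share of all genes called by edgeR, against which the counts of these lists are to be read, was 11.0% higher and 12.9% lower in inhibitory neurons, 21.3% and 19.8% in Hcrt-high and 18.8% and 15.5% in Pmch-high neurons. Among 10 other neuronal calcium sensors, 9 were tested between inhibitory and excitatory neurons, of which 2 were higher and 3 lower by edgeR and 1 and 1 by DESeq2. The visinin-like sensor Vsnl1 was at 573 and 481 against 416 and 354 CPM (0.41 ± 0.04), and Hpcal4, a close relative of Hpcal1, at 122 and 132 against 172 and 175 CPM (-0.50 ± 0.05). The Hcrt-high group had 2 of 9 higher and 6 lower (1 and 3 by DESeq2). There Hpcal4 rose (308 and 317 against 139 and 146 CPM, 1.38 ± 0.11) where Hpcal1 fell, and hippocalcin, Hpca, fell (22.8 and 16.2 against 159 and 135 CPM, -2.67 ± 0.18). Against the same neurons the Pmch-high group had 2 of 9 higher and 5 lower (2 and 3 by DESeq2): the potassium channel partner Kcnip4 was higher (295 and 283 against 114 and 90.2 CPM, 1.77 ± 0.09), and its relative Kcnip1 (-3.29 ± 0.23), Hpca (-2.73 ± 0.18) and Vsnl1 (-1.94 ± 0.10) were lower. The medians of the list were 0.01, -0.72 and -0.53 in these 3 comparisons, against 0.01, -0.01 and -0.02 over all genes.

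Of 16 other EF-hand genes, 13 were tested in each of these comparisons. By edgeR 2 were higher and 4 lower in inhibitory neurons, with 0 called by DESeq2, 3 higher and 5 lower in Hcrt-high neurons (3 and 3 by DESeq2), and 4 higher and 5 lower in Pmch-high neurons (1 and 3 by DESeq2). The shares over all genes were 11.0%, 21.3% and 18.8% higher and 12.9%, 19.8% and 15.5% lower. By edgeR the lower counts were further above their shares than the higher counts were. The list medians were 0.0033, -0.12 and 0.14. S100a10 was at 169 and 153 against 33.5 and 30.5 CPM in Hcrt-high neurons (2.58 ± 0.13), and Caln1, a calneuron, at 5.26 and 3.69 against 73.2 and 67.4 CPM (-3.73 ± 0.28). In Pmch-high neurons S100a10 was at 128 and 33.0 CPM, so its edgeR value (1.59 ± 0.27) rested on the library labelled male, and DESeq2 did not call it (adjusted p = 0.451). The relatives of neurogranin included Pcp4, at 172 and 215 against 1190.2 and 1359.7 CPM in Pmch-high neurons (-2.46 ± 0.07). Another, Pcp4l1, was lower in inhibitory neurons (16.5 and 17.9 against 59.7 and 49.6 CPM, -1.70 ± 0.10) and higher in Pmch-high neurons (1.67 ± 0.16). Pcp4 was 2.48 ± 0.12 higher on the log2 scale in Hcrt-high than in Pmch-high neurons.

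In Hcrt-high neurons, 4 of 19 genes of calmodulin kinases and calcineurin were higher and 12 lower (2 and 11 by DESeq2), beside 21.3% and 19.8% of all genes, and the list median was -0.46. The Pmch-high group had 6 of 19 higher and 8 lower (2 and 1 by DESeq2), beside 18.8% and 15.5%, with a median of -0.27. The inhibitory group had 9 of 19 higher and 4 lower (1 and 1 by DESeq2), beside 11.0% and 12.9%, with a median of 0.11. Camk4 was at 243 and 202 against 81.8 and 87.6 CPM in Pmch-high neurons (1.67 ± 0.10), and Camk1d at 5.26 and 2.21 against 44.4 and 43.1 CPM in Hcrt-high neurons (-3.34 ± 0.33). Of the pumps and exchangers that remove calcium, 3 of 11 were higher and 6 lower in Hcrt-high neurons (3 and 2 by DESeq2), beside 21.3% and 19.8% of all genes. The Pmch-high group had 4 of 12 higher and 5 lower (2 and 1 by DESeq2), beside 18.8% and 15.5%, and the inhibitory group had 5 of 13 higher and 3 lower (2 and 0 by DESeq2), beside 11.0% and 12.9%. The medians of the pumps and exchangers were -0.47, 0.03 and 0.05 in this order. The membrane pump Atp2b4 was lower in Hcrt-high (39.5 and 36.9 against 126 and 106 CPM, -1.35 ± 0.15) and higher in Pmch-high neurons (251 and 240.2 CPM, 1.35 ± 0.09), and differed by -2.70 ± 0.15 between them.

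Within single inhibitory and other excitatory neurons, Calb2 was found more often in cells with Calb1 than in cells without it. Most of those with a UMI of either had none of the other after thinning. At this depth a cell without a UMI may still hold the transcript. Cells were thinned to 3000 UMIs for this, which left out 42 and 30 inhibitory and 26 and 12 other excitatory neurons. Among inhibitory neurons with a Calb1 UMI, 40.1% (33.1 to 47.4) and 30.2% (24.3 to 36.5) had a Calb2 UMI, against 21.4% (18.6 to 24.5) and 20.4% (17.8 to 23.3) of those without. Among other excitatory neurons these shares were 56.0% (49.0 to 62.8) and 43.9% (37.2 to 50.9) against 30.3% and 27.9%. In inhibitory neurons Nrgn too was found more often in cells with Calb1, in 34.9% and 28.9% of those against 16.1% and 14.2% of cells without. Of the 28 pairs examined in each group, only these had intervals apart in both libraries, and none had in Hcrt-high neurons, where Calb1 was found in 65 and 59 of 73 thinned cells. Cells of a library are not replicates, so this is a description. At least 1 of Calb1, Calb2 and Pvalb was found in 91.8% and 89.0% of thinned Hcrt-high, 58.0% and 53.0% of other excitatory, 52.6% and 55.6% of Pmch-high and 39.9% and 39.0% of inhibitory neurons, against 7.02% and 9.57% of mature oligodendrocyte-like cells. All 3 together were found in at most 1.22% of any of these groups.

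Between the libraries, which have no replicate, all 8 genes had a higher neuronal CPM in the library labelled male, and for 6 of them the counting interval of the ratio lay above 1. In neurons the ratio of CPM was 1.29 (1.23 to 1.35) for Calb2, 1.29 (1.21 to 1.38) for Nrgn, 1.28 (1.21 to 1.36) for Hpcal1 and 1.32 (1.13 to 1.56) for Pvalb. Over 7327 genes with at least 20 CPM the median ratio was 0.985 and 95% of genes lay from 0.798 to 1.21, and the ratios of Calb2, Nrgn and Hpcal1 fell above that range, the last 2 with intervals that reach into it. Pvalb, at 18.7 and 14.1 CPM, was below that minimum and is not set against the range. Calb1 (1.11, 1.07 to 1.17), Ncald (1.10, 1.06 to 1.14), Necab2 (1.06) and Necab1 (1.01) fell within it. In the other excitatory neurons the Nrgn ratio was 1.62 (1.46 to 1.81) and in inhibitory neurons 1.06 (0.967 to 1.16). No test of the labels was possible, and sex, pool and library cannot be told apart.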

How the data were processed

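Cells of the lateral hypothalamic area were profiled in 2 droplet libraries. The authors deposited raw UMI counts per gene and barcode, made with Cell Ranger 2.2.0 on mm10 (GRCm38) per the submitters' processing notes; whether strand or introns were used in counting is not given there. The libraries hold 23151801 and 27437142 UMIs, and counting error, not library spread, sets the intervals given.

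Barcodes with under 500 genes or over 20% mitochondrial UMIs (163 in each library) and the 95 and 115 barcodes with the highest doublet scores against simulated doublets were removed. Cells were clustered with scanpy 1.11.5 and leidenalg 0.10.2 on 2000 variable genes, without the 8 genes and the wider calcium lists. Groups were then set by Slc32a1, Slc17a6, Hcrt, Pmch and gate markers. Sums per library were tested with edgeR 4.0.16 (filterByExpr, TMM, library as a block, 1 residual degree of freedom), with Benjamini-Hochberg adjustment and a call at 0.05. The spread is thus largely, and in some fits wholly, borrowed from all genes. The SE is the fold change divided by the root of F. On simulated counts for Hcrt-high against other excitatory neurons, 70% of 2-fold and 90% of 4-fold changes were recovered, with 5 false calls among 11739 genes. These counts were drawn with the same spread for every gene and no library effect. They check the code and do not give the rate of false calls in the real counts.

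DESeq2 1.42.0, no block, no TMM factors, no filter, no doublet removal, thinning to 3000 UMIs, other group limits and each library alone were tried. Genes named were all 8 genes, from each wider list up to 3 called genes per direction whose higher group reached 20 CPM, and the 3 most alike genes over subtypes. The genes, lists and gates were chosen with earlier results of these data known.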

Additional observations from a re-analysis of the deposited data

Results flagged for a closer look

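In 4 comparisons the 2 libraries moved opposite ways, each with a counting interval of its ratio that left out no change. Each is a plain log2 ratio of CPM, library labelled male first. Nrgn in inhibitory against excitatory neurons was at -0.139 and 0.358. In the Cartpt gate Nrgn was at -0.334 and 0.341. Calb2 in the Tac2 gate was at 0.327 and -0.267. Pvalb in the Nos1 gate was at -1.09 and 0.802. The difference between the libraries was not tested in any of them, since each library is 1 sample, and edgeR called none of the 4.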

How the results depend on the processing

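The members called among Pmch-high against other excitatory neurons fell from 8 to 5 with DESeq2 and 4 after thinning to 3000 UMIs. In the inhibitory gates the calls fell from 38 of 56 to 12 with DESeq2, 23 with no replicate block and 20 after thinning. In the other comparisons the member counts stayed within 1.5 times. Of the single results, DESeq2 kept 92 on their side of the threshold and lost 39, no replicate block 105 and 28, thinning 105 and 28. Without the library labelled female, 78 plain ratios of the other library differed from the fitted value by over 1 SE. Of the rest, 2 reversed and 53 stayed within it. Without the library labelled male 73 differed and 60 stayed within it. Plain ratios carry no TMM scaling, unlike the fitted values. Its absence moved the median of all genes by -0.25 and -0.27 (log2) in the Hcrt-high and Pmch-high comparisons. These counts thus mix the change of scale with the change of library. The numbers of the 2 libraries do not pair animals: the block is the library itself, shared by both groups of every fit. Genes called among all genes fell from 3173, 4861, 4039 and 3297 in the 4 main comparisons to 536, 1564, 1381 and 766 with DESeq2. Without Hcrt-high and Pmch-high neurons, Necab1 (-0.24) and Nrgn (-0.32) reversed between inhibitory and excitatory neurons. With 1 library alone, the plain log2 ratio of Calb2 in Hcrt-high neurons ranged from -0.15 to 0.30, beside 0.07 fitted without TMM factors. That of Calb1 in the Th gate ranged from -0.80 to 0.00012. The cause was not tested. Thinning lowered the share of neurons with a UMI to 28.4% for Calb1, 29.5% for Calb2, 3.08% for Pvalb, 13.4% for Necab1, 10.6% for Necab2, 54.3% for Ncald, 25.6% for Hpcal1 and 18.2% for Nrgn, as fewer UMIs are read per cell. At resolution 2, Calb2 in its top subtype was at 823 CPM. With 2 libraries and 1 residual degree of freedom, small differences rest on the spread edgeR borrows across genes, and rare transcripts such as Pvalb on few UMIs.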
